A study of Mus musculus with 3 samples.

Results

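The signalling pathway of the bone morphogenetic proteins (BMPs) was followed through 10 genes in single cells of the newborn mouse heart. They were the ligand genes Bmp2, Bmp4, Bmp6 and Bmp10, the inhibitory Smad genes Smad6 and Smad7, and the target genes Id1, Id2, Id3 and Id4. The genes were taken by symbol, and each of the 10 matched 1 of the 27998 Ensembl gene IDs in the count matrices. The data came from 10x Genomics libraries, in which each captured transcript is counted once as a unique molecular identifier (UMI). All 3 libraries were from ICR mice at postnatal day 2 with the genotype HCN4H2BGFP, a knock-in reporter of green fluorescent protein (GFP) at the pacemaker channel gene Hcn4, so that no group is free of the reporter allele. Cells of the sinoatrial node region were sorted by flow cytometry into a GFP-positive and a GFP-negative library, while a further sample was left unsorted. Its title reads RA while its tissue field names the sinoatrial node region, and it is called the RA library here. There was 1 library per group, and the number of animals behind each was not given in the labels.

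BMPs are secreted ligands that bring together type I and type II receptor kinases at the cell surface. The receptors phosphorylate Smad1, Smad5 and Smad9, which join Smad4, enter the nucleus and switch on target genes. The Id genes are among the most direct of these targets: Id proteins bind the E-proteins Tcf3, Tcf4 and Tcf12 and keep them off DNA. Smad6 and Smad7 are also induced by the pathway and block it again from inside the cell. In the heart, Bmp2 is known for patterning the atrioventricular canal, Bmp4 for the venous pole and outflow tract, and Bmp10 as a ligand made by atrial and trabecular muscle that acts on endothelium through the receptor Acvrl1. Id2 is known for its part in the cardiac conduction system.

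The promoters of 3 Id genes are shown because BMP-activated Smads bind these short elements and the levels of the Id genes are the readout below. RefSeq windows of 250 bases before the gene start were at hand for 7 of the 10 members (build GRCm38.p6). Capitals mark GGCGCC, the GC-rich Smad1/5 element, or CAGAC, the Smad box, searched on both strands, so that GTCTG marks CAGAC on the other strand. GGCGCC reads the same on both strands, and no 2 of the matches shown overlap.
Id2: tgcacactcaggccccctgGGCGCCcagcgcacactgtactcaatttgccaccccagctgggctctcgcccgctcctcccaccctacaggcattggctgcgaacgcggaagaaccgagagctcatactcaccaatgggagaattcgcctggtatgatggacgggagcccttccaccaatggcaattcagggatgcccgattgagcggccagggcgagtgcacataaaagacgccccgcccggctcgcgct
Id3: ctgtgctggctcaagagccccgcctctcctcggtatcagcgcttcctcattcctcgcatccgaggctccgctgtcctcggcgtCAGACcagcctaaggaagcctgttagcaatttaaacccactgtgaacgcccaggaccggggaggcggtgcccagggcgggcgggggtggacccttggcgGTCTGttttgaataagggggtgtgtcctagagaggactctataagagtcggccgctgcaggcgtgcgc
Id4: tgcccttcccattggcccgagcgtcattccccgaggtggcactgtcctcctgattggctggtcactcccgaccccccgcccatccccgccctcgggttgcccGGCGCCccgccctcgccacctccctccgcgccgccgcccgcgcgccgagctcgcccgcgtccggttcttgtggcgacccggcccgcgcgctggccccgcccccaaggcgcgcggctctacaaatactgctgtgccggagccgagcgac
The Id2 window lies on the minus strand at chr12:25096093-25096342 and holds 1 GGCGCC, 231 bases before the start. The Id4 window at chr13:48260866-48261115, on the plus strand, also holds 1, 148 bases before the start. The Id3 window at chr4:136143572-136143821, on the plus strand, holds 2 CAGAC and no GGCGCC. Among all 32851 windows of this length, 9.586% hold GGCGCC and 42.19% hold CAGAC, so that these matches describe the letters and are not evidence of binding.

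Barcodes with under 500 genes or over 50% mitochondrial UMIs were removed, which left 3289 GFP-positive, 3032 GFP-negative and 1289 RA cells at median depths of 12429, 11417 and 14143 UMIs. The GFP transcript itself stood at 43.7 CPM (counts of the gene per 1000000 UMIs) in the GFP-positive library, 0.522 in the GFP-negative and 0.745 in the RA library. In cardiomyocyte-like cells, defined next, it was 132 CPM in the GFP-positive library and 0 in both others. Cells were put in classes by 8 marker genes each and are called "-like". A cell needed at least 3 markers of its class with 2 UMIs or more and a lead of 2 markers over any other class. Cells without that lead, 202, 640 and 188 in the same order, were left out as mixed, which also served to remove doublets, and no doublet caller was run. The GFP-positive library held 2464 endothelial-like, 399 epicardial-like and 161 cardiomyocyte-like cells. The GFP-negative library held 1813 fibroblast-like, 157 endothelial-like, 112 other leukocyte-like, 107 smooth muscle or pericyte-like, 99 macrophage-like and 37 cardiomyocyte-like cells. The RA library held 666 fibroblast-like, 216 endothelial-like, 95 macrophage-like and 52 cardiomyocyte-like cells. All 8 cardiomyocyte markers were read in the cardiomyocyte-like cells of each library and all 8 endothelial markers in the endothelial-like cells. The 8 fibroblast markers summed to 13083 CPM in the GFP-positive epicardial-like cells, against 6222 CPM of their own 8 markers. In the GFP-negative smooth muscle or pericyte-like cells they summed to 5264 CPM, against 17977 CPM of that class's own. The part of fibroblast RNA in the levels of these classes was not tested. Haemoglobin took 0.034%, 4.88% and 7.7% of the UMIs of the kept cells in the GFP-positive, GFP-negative and RA libraries. The libraries shared 19, 8 and 9 barcodes in pairs.

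A level below is the CPM of a gene in the summed UMIs of a class in 1 library, with an exact Poisson 95% interval that covers counting error only. Without replicate libraries there is no test between groups and no p-value. A gene is called higher or lower where the ratio of 2 levels passes 1.5-fold and its exact 95% interval leaves out equality, with at least 10 UMIs in both together. Against a level of 0, a fold is a lower bound set against a floor of 3 UMIs in the summed class. Classes were compared from 50 cells and subsets from 20 cells. Levels are compared between cells for 1 gene at a time and not between genes.

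Bmp2 was higher in the GFP-positive cardiomyocyte-like cells than in any other class compared. It stood at 176 CPM there (interval 162 to 191, 561 UMIs) and was read in 98 of the 161 cells. No UMI of Bmp2 was found in the 52 RA or the 37 GFP-negative cardiomyocyte-like cells, where counts of 0 allow up to 3.79 and 5.11 CPM. The level in the GFP-positive cells was thus at least 46.5-fold higher than in the RA cells and at least 34.5-fold higher than in the GFP-negative cells. The share of cells with a Bmp2 UMI was 60.9% in these cells and 11.4% in the endothelial-like cells of the same library. After every cell was thinned to 2000 UMIs those shares were 27.3% and 2.39%. The 46, 240 and 153 barcodes with too few genes (GFP-positive, GFP-negative and RA) held no Bmp2 UMI among 256750, 1769769 and 1136980 UMIs. The counting intervals of these counts reach up to 14.4, 2.08 and 3.24 CPM in that order. Whether such barcodes hold free RNA or cells with few genes was not tested, so the level of free Bmp2 RNA is not known.

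Outside muscle, macrophage-like cells carried the most Bmp2. Their level was 48.0 CPM in the GFP-negative library (34.8 to 64.4) and 37.3 in the RA library (26.1 to 51.6), and 83.8 in the 23 macrophage-like cells of the GFP-positive library, or 49.7 without the 1 cell that gave 42.3% of those UMIs. In the RA library 1 cell gave 44.4% of those UMIs, and without it the level was 21.0 CPM. Endothelial-like cells had 17.5 CPM in the GFP-positive, 12.2 in the GFP-negative and 6.0 in the RA library. Epicardial-like cells stood at 20.2, smooth muscle or pericyte-like cells at 17.4 and other leukocyte-like cells at 5.68 CPM, the last from 5 UMIs. Fibroblast-like cells were at 10.7 CPM in the GFP-negative and 3.96 in the RA library, a 2.67-fold difference.

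Bmp4 was above all an endothelial transcript in the GFP-positive library. Its level in endothelial-like cells was 239.5 CPM in the GFP-positive library (234 to 245), 51.0 in the GFP-negative (41.1 to 62.5) and 55.8 in the RA library (47.4 to 65.2). The GFP-positive level lay apart from the other two, whose intervals overlapped. Fibroblast-like cells carried Bmp4 at 76.4 CPM (GFP-negative) and 56.2 CPM (RA), and epicardial-like cells at 60.3 CPM. Smooth muscle or pericyte-like cells had 19.4 CPM, macrophage-like cells 2.18 (GFP-negative) and 0 (RA), and other leukocyte-like cells 4.54. In cardiomyocyte-like cells the level was 28.6 CPM in the GFP-positive, 5.11 in the GFP-negative and 0 in the RA library. A single cell gave 25.3% of the GFP-positive muscle UMIs, and without it the level was 21.5 CPM. The 8 endothelial markers summed to 395 CPM in these GFP-positive cardiomyocyte-like cells, 39.2 in the GFP-negative and 63.2 in the RA cells, against 4782 CPM in the endothelial-like cells of the GFP-positive library, and 1 of the 8 was at 0 in the GFP-negative muscle. The part of that endothelial signal in the muscle Bmp4 level was not tested.

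Bmp10 was read mainly in muscle and, taken over all cardiomyocyte-like cells of a library, ran opposite to Bmp2. It stood at 93.5 CPM in the RA cardiomyocyte-like cells (73.4 to 117, read in 19 of 52 cells) and at 92.0 CPM in the GFP-negative ones (69.1 to 120.0, 19 of 37 cells). In the GFP-positive cells it was 9.43 CPM (6.36 to 13.5), and all 30 UMIs came from 2 of 161 cells. In every other gated class of 50 cells or more the level was 1.01 CPM or less. The RA fibroblast-like cells had that highest value, from 11 UMIs, and 1.65% of them had a UMI against 36.5% of the RA cardiomyocyte-like cells.

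Bmp6, an endothelial ligand best known for iron control in the liver, was scarce. Its highest level among classes of 50 cells or more was 2.15 CPM in the GFP-positive endothelial-like cells, with 76 UMIs in 74 cells. Epicardial-like cells had 1.38 CPM from 10 UMIs, and each other class and library of that size had 4 UMIs or fewer. Its endothelial levels in the GFP-negative (0.554 CPM) and RA (0.706 CPM) libraries rest on 1 and 2 UMIs, and neither ratio was called.

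**Figure D1:**
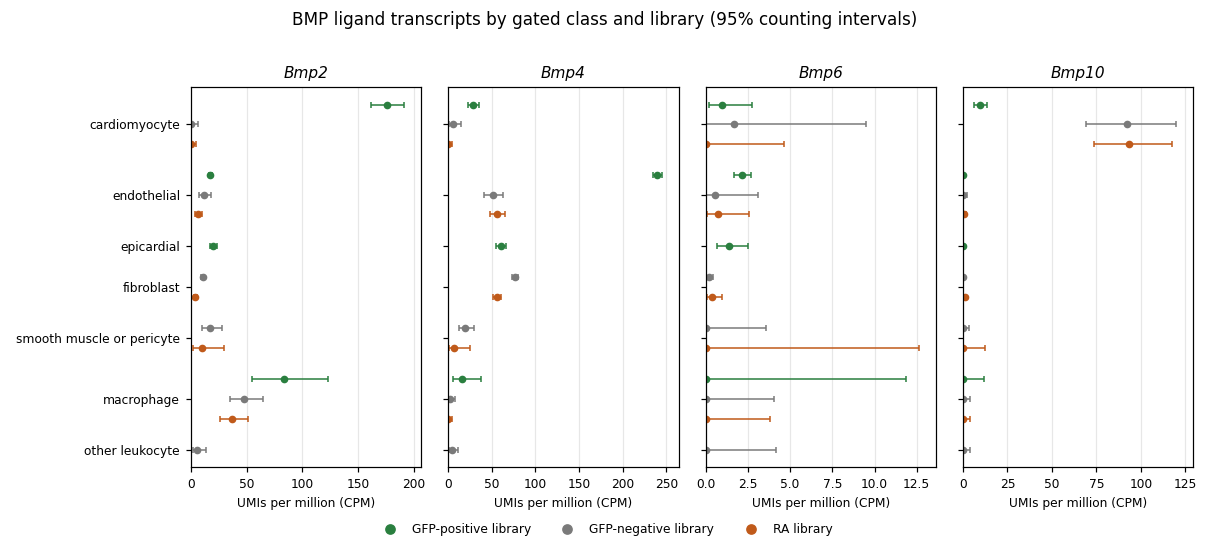
Levels of the 4 ligand genes (horizontal axis, CPM; linear, a separate scale for each gene) in each gated class (vertical axis) of the 3 libraries (colour), as points with 95% counting intervals. Bmp2 sits at 176 in GFP-positive muscle and at 0 in the other muscle. Bmp10 is lower in GFP-positive than in the other muscle, and Bmp4 reaches 239.5 in GFP-positive endothelium. Classes of 20 to 49 cells are drawn too and have wide intervals.

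Of the inhibitors, Smad6 was highest in the fibroblast-like cells of the RA library. It stood at 109 CPM there (103 to 115), against 38.7 CPM in the GFP-negative fibroblast-like cells (36.1 to 41.3). Endothelial-like cells were close to each other at 56.3 CPM (GFP-positive), 40.4 (GFP-negative) and 52.6 (RA). In cardiomyocyte-like cells Smad6 was 48.4 CPM in the GFP-positive library (41.0 to 56.7), 8.52 in the GFP-negative (2.77 to 19.9) and 20.2 in the RA library (11.6 to 32.8). Epicardial-like cells had 34.7 CPM, smooth muscle or pericyte-like cells 27.1, macrophage-like cells 14.2 and 22.8 (GFP-negative and RA), and other leukocyte-like cells 1.14 from 1 UMI. Smad7, which also restrains TGF-beta signalling, varied less. Endothelial-like cells had 62.6 CPM in the GFP-positive, 38.2 in the GFP-negative and 40.6 in the RA library. Cardiomyocyte-like cells had 37.7, 29.0 and 35.4 CPM in that order, with overlapping intervals. The remaining classes of 50 cells or more lay between 15.5 CPM (RA macrophage-like) and 45.5 CPM (smooth muscle or pericyte-like).

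The Id genes divided the classes differently from each other. Id3 was broad: it stood at 1836 CPM in epicardial-like cells, at 1182 and 1604 CPM in fibroblast-like cells (GFP-negative and RA), at 1335, 959 and 866 CPM in endothelial-like cells (GFP-positive, GFP-negative and RA), and at 1390.0 CPM in smooth muscle or pericyte-like cells. Cardiomyocyte-like cells were the lowest, at 236 CPM in the GFP-positive, 88.6 in the GFP-negative and 92.3 in the RA library. Id1 was also high in epicardial-like cells, at 378 CPM. Endothelial-like cells had 285, 222 and 161 CPM of Id1 (GFP-positive, GFP-negative and RA). Fibroblast-like cells had 156 and 151 CPM (GFP-negative and RA), and smooth muscle or pericyte-like cells of the GFP-negative library 234 CPM. Cardiomyocyte-like cells had 49.3, 15.3 and 24.0 CPM (GFP-positive, GFP-negative and RA). In the GFP-negative and, narrowly, the RA library Id1 was thus higher in endothelial-like than in fibroblast-like cells, while Id3 ran the other way. Other leukocyte-like cells had 21.6 CPM of Id1. The RA macrophage-like cells had 187 CPM of Id1, of which 1 cell gave 28.7%, and the level without that cell was 136 CPM.

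Id2 was highest in macrophage-like and other leukocyte-like cells, and in muscle it was highest in the GFP-positive library. Macrophage-like cells carried 778 CPM (GFP-negative) and 989 CPM (RA), and other leukocyte-like cells 656 CPM. Cardiomyocyte-like cells stood at 573 CPM in the GFP-positive library (547 to 599), 232 in the GFP-negative (194 to 274) and 259 in the RA library (225 to 297). The GFP-positive interval lay clear of the other 2, which overlapped. Endothelial-like cells had 434, 263 and 294 CPM (GFP-positive, GFP-negative and RA), fibroblast-like cells 298 and 362 CPM (GFP-negative and RA), epicardial-like cells 303 and smooth muscle or pericyte-like cells 219.9 CPM. Id4 belonged to mesenchymal cells, at 139 CPM in smooth muscle or pericyte-like cells (117 to 163), 56.4 CPM in the GFP-negative fibroblast-like cells and 94.5 CPM in the RA ones. Epicardial-like cells had 18.6 CPM of Id4 and endothelial-like cells 14.0, 4.43 and 3.18 CPM (GFP-positive, GFP-negative and RA). Cardiomyocyte-like cells had 8 UMIs of Id4 in the GFP-positive, 2 in the GFP-negative and 0 in the RA library.

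**Figure D2:**
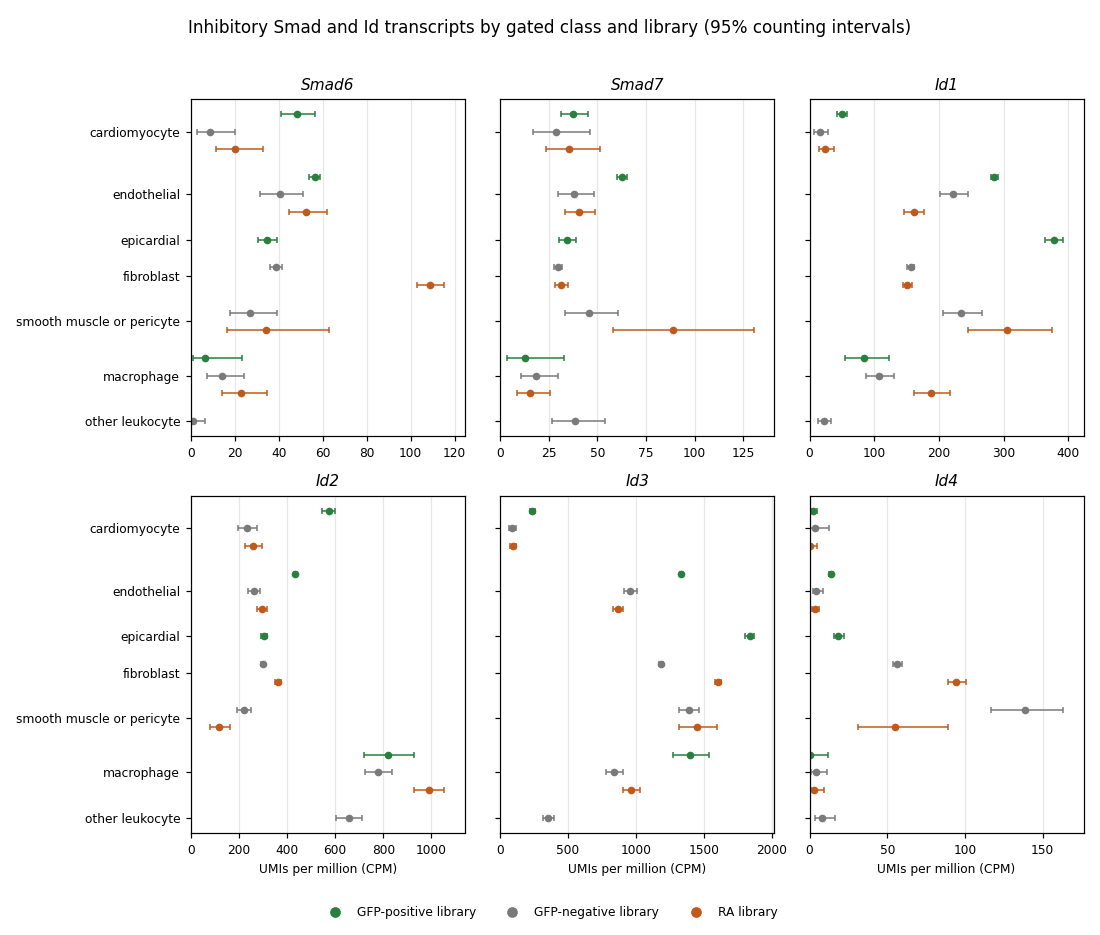
Levels of the inhibitory Smad and Id genes (horizontal axis, CPM; linear, a separate scale for each gene) in each gated class (vertical axis) of the 3 libraries (colour), as points with 95% counting intervals. Id3 and Id1 are lowest in cardiomyocyte-like or leukocyte-like cells, Id2 is highest in macrophage-like cells at up to 989, and Id4 is highest at 139 in smooth muscle or pericyte-like cells.

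A class led a library for a gene where it was over 1.5-fold above every other class of at least 50 cells there, with each interval leaving out equality. In the GFP-positive library 4 of the 10 genes had such a class, against a background of 37.5% of all genes measured. Cardiomyocyte-like cells led for Bmp2 and Bmp10 (14% of all genes), endothelial-like cells for Bmp4 and Smad7 (12.1%) and epicardial-like cells for none (11.4%). In the GFP-negative library, where Bmp6 and Bmp10 had too few UMIs, 2 genes had one (background 20%). Macrophage-like cells led for Bmp2 (4.06% of all genes) and smooth muscle or pericyte-like cells for Id4 (5.02%). Endothelial-like (4.08%), fibroblast-like (3.1%) and other leukocyte-like cells (3.78%) led for no member. In the RA library, where Bmp6 had too few, 6 had one (background 31%). Macrophage-like cells led for Bmp2 and Id2 (8.17% of all genes), cardiomyocyte-like cells for Bmp10 (9.62%), fibroblast-like cells for Smad6, Id3 and Id4 (6.58%) and endothelial-like cells for none (6.59%). The counts in the GFP-positive and GFP-negative libraries were thus close to the background, and the libraries held different classes. The class leading Id4 in the GFP-negative library was fibroblast-like under a gate of 4 markers with a lead of 3.

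In muscle, the GFP-positive cardiomyocyte-like cells were set against those of the unsorted RA library. Hcn4 had no UMI in all kept RA cells, against 2.02 CPM in the GFP-positive and 0.11 CPM in the GFP-negative library. The title and tissue field of the RA library disagree, so sorting and the piece of tissue taken cannot be told apart here. Of the 8 members with enough UMIs, 6 were higher in the GFP-positive cells (Bmp2, Bmp4, Smad6, Id1, Id2 and Id3), 1 was lower (Bmp10) and Smad7 lay between. Over all genes measured in this comparison, 12.5% were higher and 6.02% lower. The median log2 ratio of the 8 members was 1.18, also with Bmp2 and Bmp4 at their lower bounds, against 0.098 over all genes. Beyond Bmp2 and Bmp10, Smad6 was 2.33-fold higher, Id1 2.01-fold, Id3 2.54-fold and Id2 2.20-fold (log2 ratio 1.14, interval 0.93 to 1.36). Bmp4, with no UMI in the RA cells, was at least 7.54-fold higher, and Bmp10 was 9.83-fold higher in the RA cells. Smad7 differed by 0.07 on the log2 scale (interval -0.51 to 0.74). With every cell thinned to 2000 UMIs, 4 members in place of 7 were called, and the share of all genes called then was not counted.

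The GFP-negative cardiomyocyte-like cells numbered 37, fewer than the 50 set for a comparison, and their values are given as a description. Against them, which is a second comparison on the same GFP-positive cells, the same 6 genes were higher and Bmp10 lower, over a background of 8.57% higher and 4.45% lower. Between the GFP-negative and RA cardiomyocyte-like cells no member of the 6 measured passed the rule (background 4.2% higher and 3.3% lower). Bmp10 differed there by -0.02 on the log2 scale (interval -0.56 to 0.50) and Id2 by -0.16 (interval -0.49 to 0.16).

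The makeup of the muscle differed between the libraries. Subsets were assigned in order, each from the cells left before it. Of the GFP-positive cardiomyocyte-like cells, 72 carried at least 2 of Pvalb, Myl2, Cntn2, Calca and Etv1 with 2 UMIs or more, the His-gene subset. Of the others, 10 had at least 20 UMIs of the atrial peptide gene Nppa. A further 31 had a UMI of the sinus node genes Tbx18 or Isl1. Any His-gene cells with 20 Nppa UMIs are thus not among the 10. The Nppa subset held 39 of the 52 RA and 28 of the 37 GFP-negative cells. With 10 cells the GFP-positive Nppa subset was too small to set against the others, so the library and the kind of muscle cell cannot be told apart. Genes of the dissociation stress response moved with the same comparison: 8 of 11 were higher in the GFP-positive than in the RA cells (summed 3006 against 1388 CPM), and their part in the result was not tested. Haemoglobin, a sign of red cell RNA, summed to 50.3 CPM in the GFP-positive and 4670 CPM in the RA cardiomyocyte-like cells. The 8 fibroblast markers summed to 272 CPM in the GFP-positive, 2228 in the GFP-negative and 873 in the RA cardiomyocyte-like cells, with 1 of the 8 at 0 in the first, and their part was not tested. The 8 endothelial markers summed to 395, 39.2 and 63.2 CPM in these cells (GFP-positive, GFP-negative and RA). The 8 epicardial markers summed to 120.3, 1.70 and 10.1 CPM in that order, with 7 of them at 0 in the GFP-negative and 5 in the RA cells. Id1 and Id3 stood higher in endothelial-like and epicardial-like cells than in muscle, and the part of these markers' cells in the Id1, Id3 and Smad6 ratios was not tested.

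Within the GFP-positive muscle the ligands split by subset. Bmp2 was 249 CPM in the His-gene subset (223 to 276), 109 in the Tbx18 or Isl1 subset (86.0 to 137) and 149 in the remaining 48 cells (124 to 177). It was 2.11-fold higher in the His-gene subset than in all other GFP-positive cardiomyocyte-like cells, and all 3 subsets lay far above the 0 of the other libraries. Bmp4 ran the other way, at 83.1 CPM in the Tbx18 or Isl1 subset against 13.6 in the other cells, a 6.07-fold difference, and 11.3 CPM in the His-gene subset. A single cell gave 40.4% of the Bmp4 UMIs of the Tbx18 or Isl1 subset. No UMI of Bmp10 was read in any of these 3 subsets, so its 30 UMIs lay in the Nppa subset, whose 10 cells were too few for a level. The 9.43 CPM over all GFP-positive cardiomyocyte-like cells is therefore not the level of that subset. In the Nppa subsets of the other libraries Bmp10 stood at 120.3 CPM (GFP-negative) and 113 CPM (RA).

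Id2 followed Bmp2 in these subsets. It was 787 CPM in the His-gene subset (742 to 835), read in all 72 cells, 213 CPM in the Tbx18 or Isl1 subset and 592 CPM in the remaining cells. The Tbx18 or Isl1 value lay near the 218 CPM of the RA Nppa subset and the 261 CPM of the GFP-negative one. Id3 (275, 254 and 192 CPM in the same order) and Id1 (56.4, 46.7 and 42.2 CPM) showed no such split, and neither passed 1.5-fold between a subset and the rest. Smad6 was 50.01, 64.2 and 38.7 CPM with no call either. Smad7 was 47.2 CPM in the His-gene subset and 23.3 CPM in the Tbx18 or Isl1 subset, each called against the rest.

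**Figure D3:**
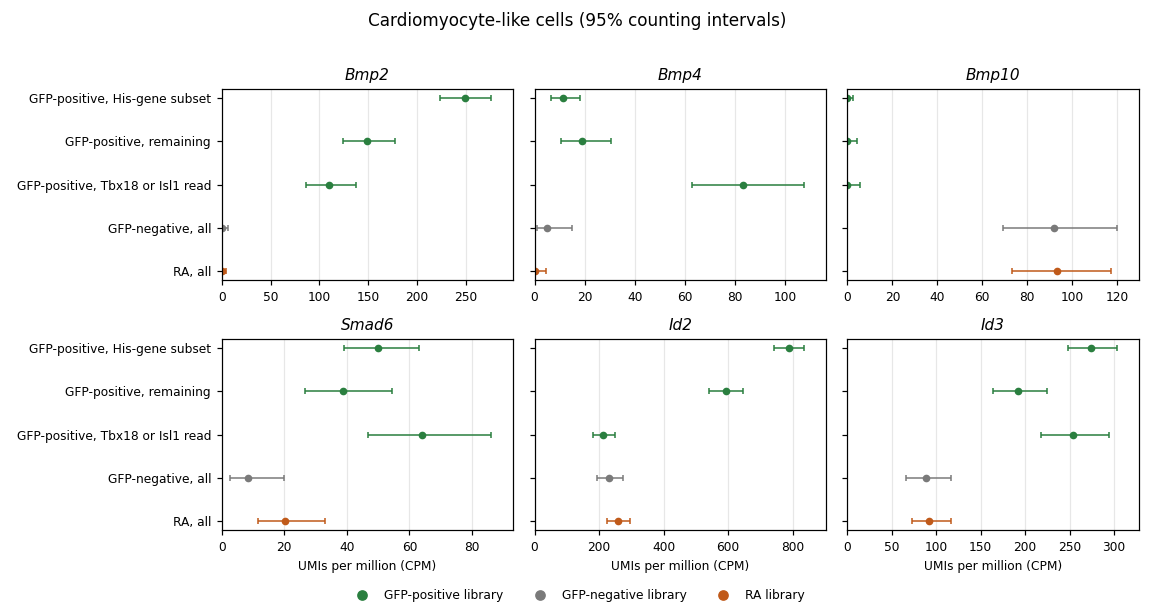
Levels of 6 genes (horizontal axis, CPM; linear, a separate scale for each gene) in the GFP-positive cardiomyocyte-like subsets and in all cardiomyocyte-like cells of the other libraries (vertical axis), as points with 95% counting intervals. Bmp2 and Id2 peak in the His-gene subset at 249 and 787, and Bmp4 in the Tbx18 or Isl1 subset at 83.1. Bmp10 is read in the GFP-negative and RA cells. The 10 cells of the GFP-positive Nppa subset are not drawn.

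Other pathway genes in the same muscle comparison with RA were described from lists of 56 genes in all. Over all genes measured there, 12.5% were higher and 6.02% lower, and the short lists were not tested against these shares. Among the ligands, Bmp7 was higher in the GFP-positive cells (52.5 against 6.32 CPM) and Bmp5 lower (3.14 against 10.1), of 2 measured. Of the 10 measured receptors and coreceptors, 4 were higher and none lower: the type II receptors Bmpr2 (65.7 against 31.6 CPM) and Acvr2b (12.3 against 2.53), and the coreceptors Eng (52.2 against 16.4) and Hfe2, or hemojuvelin (70.4 against 40.4). Of 4 signal-carrying Smads, Smad5, Smad9 and Smad4 were higher, Smad9 by 5.88-fold from 1 UMI in the RA cells. The extracellular BMP binders Fst (follistatin), Twsg1 and Nbl1 were higher among 5 measured, and so were the decoy receptor Bambi (181 against 97.3 CPM) and the Smad repressor Ski among 5 inhibitors. Of 6 other known targets only Hamp, the hepcidin gene, was higher (113 against 5.06 CPM), and Hey1 and Tbx20 were lower. Tbx20 was 151 CPM in the GFP-positive and 353 CPM in the RA cells. Among the E-proteins Tcf4 was higher and the other two lay between.

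In endothelium, the comparison of GFP-positive with GFP-negative endothelial-like cells had 9 measured members, of which 4 were higher (Bmp4, Smad7, Id2 and Id4) and none lower. The background was 11.3% higher and 6% lower, and the median log2 ratio of the members was 0.70, against 0.091 over all genes. Bmp4 was 4.68-fold higher, Smad7 1.63-fold, Id2 1.65-fold and Id4 2.97-fold. Against the RA library, which uses the same GFP-positive cells, 6 of 9 were higher (Bmp2, Bmp4, Smad7, Id1, Id3 and Id4) and none lower, over a background of 14% higher and 8.67% lower. Bmp4 was 4.28-fold, Bmp2 2.83-fold, Id4 4.16-fold, Id1 1.77-fold, Id3 1.54-fold and Smad7 1.53-fold higher. The last 2 sat just past the 1.5-fold limit, and Id2 just under it at 1.47-fold. With thinned cells 2 members were called against RA, and under a gate of 4 markers with a lead of 3 there were 8 called against the GFP-negative library. The share of all genes called under these alternatives was not counted. At the main settings Smad6 and Bmp6 lay between in both comparisons. Stress genes moved with these comparisons too, 9 and 8 of 11 being higher in the GFP-positive cells (summed 7504 CPM, against 4100 in the GFP-negative and 4618 in the RA cells). The 8 smooth muscle or pericyte markers summed to 37.1, 264 and 166 CPM in the GFP-positive, GFP-negative and RA endothelial-like cells, with 1 at 0 in RA. The 8 fibroblast markers summed to 904, 1436 and 1237 CPM in that order, with none at 0, and haemoglobin to 63.2, 4725 and 4540 CPM. The part of these signals in the result was not tested.

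The endothelial makeup also differed, so subsets were set side by side, each given by at least 3 of 6 markers read and more than for any other subset. The GFP-positive library held 707 venous-like, 524 endocardial-like, 332 arterial-like, 170 lymphatic-like and 129 capillary-like cells, while the GFP-negative held 70 capillary-like and 43 endocardial-like cells and the RA library 68 endocardial-like, 63 capillary-like and 31 venous-like cells. Bmp4 was higher in the GFP-positive library in each of the 7 subset comparisons that could be made. They all use the same GFP-positive library. They include those of the endothelial-like cells in no named subset (602 GFP-positive, 33 GFP-negative and 48 RA cells). The share of all genes higher in such comparisons was not counted. In endocardial-like cells Bmp4 was 94.6 CPM in the GFP-positive, 38.6 in the GFP-negative and 25.9 in the RA library. In capillary-like cells it was 219 CPM against 50.5 and 44.7 CPM in that order, and in venous-like cells 342 CPM against 126 in the RA library. Within the GFP-positive library arterial-like cells had 284 CPM of Bmp4 and lymphatic-like cells 77.7. Venous-like cells were 1.70-fold above the other endothelial-like cells, while endocardial-like and lymphatic-like cells were 2.94-fold and 3.22-fold below them.

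The target genes were spread differently over the endothelial subsets. Id1 was highest in capillary-like (539 CPM) and lymphatic-like cells (476 CPM) of the GFP-positive library and lowest in endocardial-like cells (181 CPM). Id2 was higher in endocardial-like than in capillary-like cells in each library. It was 574 CPM in endocardial-like against 225 CPM in capillary-like cells of the GFP-positive library, 502 against 59.1 CPM in the GFP-negative and 511 against 102 CPM in the RA library. Id3 was even across the GFP-positive subsets, from 1188 CPM in arterial-like to 1552 CPM in venous-like cells. Smad6 stood at 8.36 CPM in lymphatic-like cells, 6.98-fold below the other endothelial-like cells, while Smad7 was 51.0 CPM there.

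Library ratios of the Id genes were also set out by subset, and differences between subsets were not tested. Between the GFP-positive and RA libraries, Id1 was 2.70-fold and Id2 2.20-fold higher in capillary-like cells, while in endocardial-like cells neither was called (1.41-fold and 1.12-fold). Id4 was called higher in endocardial-like cells against both libraries (17.9 CPM, against 4.29 and 2.35, each of these from 2 UMIs). In capillary-like cells it was called against neither, with 6 UMIs in the GFP-negative and 4 in the RA cells. The log2 intervals against RA overlapped, at 1.05 to 5.99 in endocardial-like and -0.39 to 3.24 in capillary-like cells. Smad6 was 1.95-fold higher in GFP-positive than in RA endocardial-like cells (60.8 against 30.6 CPM) and lower in capillary-like cells (29.6 against 56.1 CPM), while over all endothelial-like cells it differed by 0.09 on the log2 scale. Against the GFP-negative library, at 53.6 CPM in endocardial-like and 25.9 in capillary-like cells, Smad6 was called in neither subset. Smad7 was higher in the GFP-positive endocardial-like cells at 46.8 CPM, against 17.2 in the GFP-negative and 25.9 in the RA library, and also in capillary-like cells, at 71.0 CPM against 44.3 and 43.5. Bmp2 was 9.16 CPM in the GFP-positive endocardial-like cells, and none of its UMIs were read in the 43 GFP-negative and 68 RA endocardial-like cells, where counts of 0 allow up to 6.44 and 3.53 CPM. Bmp6 was highest in the arterial-like cells, at 3.31 CPM against 1.89 in the other GFP-positive endothelial-like cells.

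**Figure D4:**
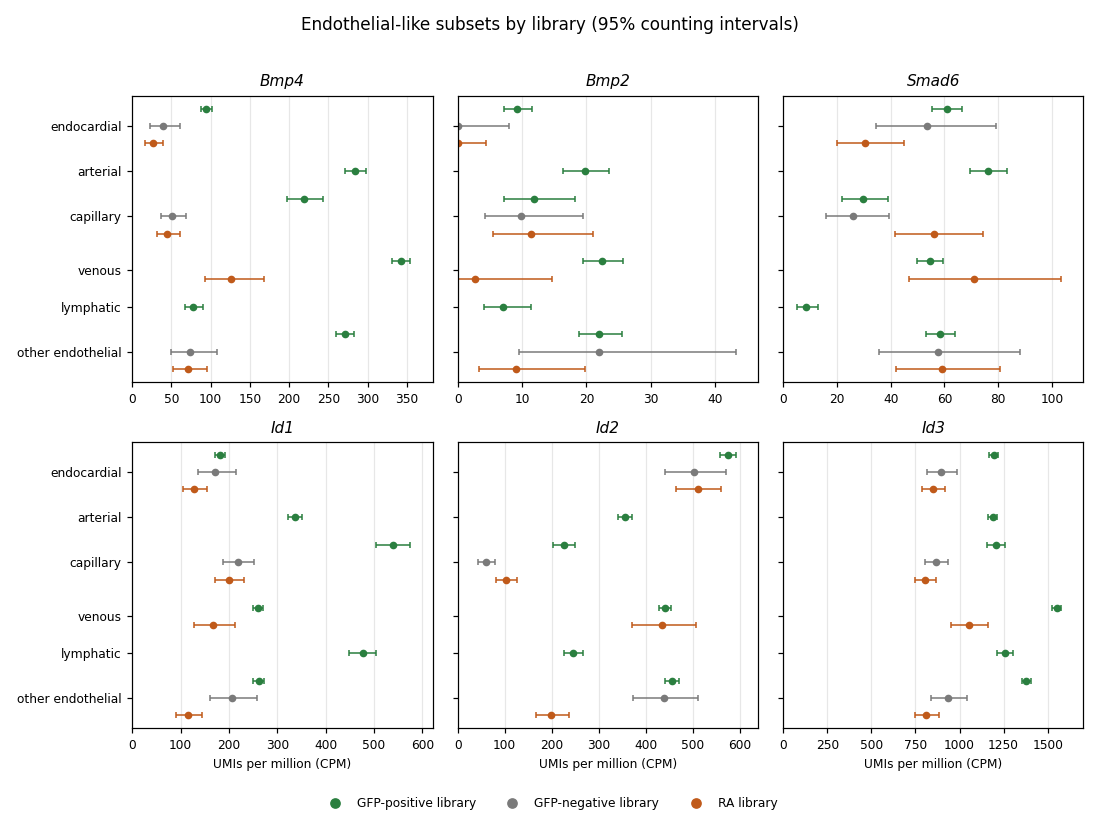
Levels of 6 genes (horizontal axis, CPM; linear, a separate scale for each gene) in endothelial-like subsets of at least 20 cells (vertical axis) of the 3 libraries (colour), as points with 95% counting intervals. Bmp4 is higher in the GFP-positive library in each subset that other libraries share, and Id2 is higher in endocardial-like than in capillary-like cells in all 3 libraries.

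Of the other pathway genes in endothelium, Acvrl1, the endothelial type I receptor, was higher in the GFP-positive cells (65.0 CPM, against 33.8 in the GFP-negative and 28.9 in the RA library), and so was Bmpr1a (35.4 against 20.5 and 20.1). Eng, the coreceptor of Acvrl1, was 646 CPM in the GFP-positive, 821 in the GFP-negative and 993 CPM in the RA cells and was called lower against RA alone. Of 10 measured receptors and coreceptors, 2 were higher and none lower against the GFP-negative library, and 3 higher and 1 lower against RA. Over all genes measured, 11.3% were higher and 6% lower against the GFP-negative library, and 14% and 8.67% against RA. The short lists of this paragraph were not tested against these shares. The binders Fst (19.5 CPM, against 2.77 and 0) and Nbl1 (49.4 against 16.1 and 6.71) were higher against both libraries. Of 10 extracellular modulators measured, 2 were higher and 2 lower against the GFP-negative library (Fstl3, 2.46 against 7.20 CPM, and Sost, 20.7 against 34.3), and 3 higher and none lower against RA. Of the 4 signal-carrying Smads, Smad1 was lower against the GFP-negative library (51.3 against 86.4 CPM) and none was higher, while Smad4 alone was higher against RA. Of 7 other targets measured, Hamp was higher against the GFP-negative library and none was lower. Against RA, Hamp and Msx1 were higher and Tmem100 (94.0 against 160.6 CPM) and Tbx20 (14.2 against 21.2) lower. Of 5 inhibitors 4 were higher against the GFP-negative and 3 against the RA library, with Ski, Skil and Smurf1 in both counts. The E-proteins Tcf3 and Tcf4, which Id proteins bind, were lower against both, Tcf4 at 266 CPM against 474 and 403.

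In fibroblast-like cells the GFP-negative library was set against RA. Of 9 measured members 1 was higher in the GFP-negative cells (Bmp2), 3 were lower (Smad6, Id4 and Bmp10) and 5 lay between, over a background of 12.9% higher and 6.43% lower. Smad6 was 2.82-fold and Id4 1.67-fold higher in the RA cells, where the RA Bmp10 value rests on 11 UMIs. Id1 differed by 0.05 on the log2 scale (interval -0.04 to 0.13). Bmp4 was 1.36-fold higher and Id3 1.36-fold lower in the GFP-negative cells, neither past the limit. The median log2 ratio of the members was -0.28, against -0.03 over all genes. Stress genes were higher in 5 of 11 (summed 8931 against 6253 CPM), and all 5 measured haemoglobin genes were lower (summed 12916 against 22856 CPM). The 8 smooth muscle or pericyte markers, of a class rich in Id4, summed to 2050 CPM in the GFP-negative and 2976 CPM in the RA cells, with none at 0. The part of these signals in the result was not tested.

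Tcf21, a gene of cardiac interstitial fibroblasts and 1 of the 8 markers of the fibroblast gate, was read in 635 of the 666 RA and in 1069 of the 1813 GFP-negative fibroblast-like cells. Cells with a Tcf21 UMI carried more Smad6 than those without in both libraries, at 49.6 against 18.6 CPM (GFP-negative) and 112 against 28.8 CPM (RA). The same held for Bmp4, at 93.1 against 45.7 and 57.3 against 23.1 CPM. Among the cells with a Tcf21 UMI, Smad6 was still 49.6 CPM in the GFP-negative and 112 in the RA library, and Bmp4 passed the rule there (93.1 against 57.3 CPM). Median depth differed with the split, at 13436 and 10117 UMIs in the GFP-negative and 16007 and 10441 UMIs in the RA library.

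Among the extracellular modulators, 8 of 12 measured were higher in the GFP-negative than in the RA fibroblast-like cells and none was lower, against 12.9% higher and 6.43% lower over all genes. Nbl1 was 188 CPM against 23.4 in RA, Fst 58.5 against 3.77, Chrd (chordin) 6.64 against 2.39 and Nog (noggin) 3.01 against 0.276. Sostdc1 had 217 UMIs in the GFP-negative and none in the RA cells, at least 34.8-fold higher. The ligands Bmp3 (6.46 against 0.368 CPM) and Bmp7 (4.96 against 0.368) were higher as well. Of 7 other targets 3 were lower in the GFP-negative cells: Atoh8 (23.4 against 47.4 CPM), Hey1 (40.3 against 96.0) and Tbx20 (116 against 269), while Tmem100 was higher at 25.8 against 2.67 CPM and Tbx2 at 9.73 against 6.44. Epicardial-like cells led the GFP-positive library for extracellular modulators, with Nbl1 at 643 CPM and Twsg1 at 150.5 CPM.

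**Figure D5:**
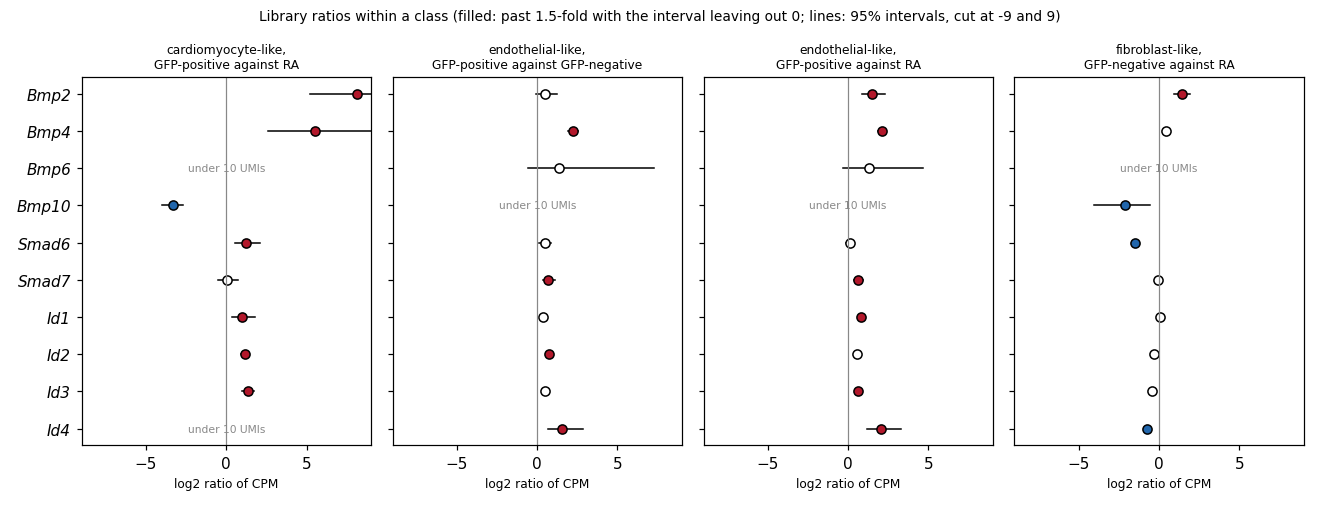
Log2 ratios of CPM (horizontal axis) of the 10 members (vertical axis) in the 4 comparisons with at least 50 cells on both sides, with 95% intervals as lines; red is called higher, blue lower and open not called, intervals are cut at -9 and 9, and the muscle ratios of Bmp2 and Bmp4 are set by the 0.5 UMIs added to a count of 0. In muscle the GFP-positive cells are higher for 6 members and lower for Bmp10, in endothelium no member is lower, and in fibroblast-like cells Smad6, Id4 and Bmp10 are lower in the GFP-negative library.

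The genes most alike to a member were found by Pearson's r of log2(CPM + 1) over the 12 class and library units of at least 50 cells, among 11368 genes. These points share libraries, and r is a description. For Bmp4 they were Fbln2 (r = 0.96), Fzd4 and Rnf165 (both 0.95), with 43 genes above 0.9. For Bmp2 only Htt (0.93) passed 0.9, followed by Inpp4a (0.90). For Bmp10 the nearest were RP23-378D16.4 (0.996), Slc9a2 (0.99) and Rimkla (0.99), with 180 above 0.9. Id2 had 3 such genes, led by Fem1c (0.95). Among the members themselves Id1 and Id3 were the most alike (0.90), and Bmp10 and Id3 the most opposed (-0.85).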

How the data were processed

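Gene expression was measured in 3 single-cell libraries of 1 sample each. The authors deposited whole-number UMI counts per gene and barcode as sparse matrices, with Cell Ranger and the mouse build mm9 named, per the submitters' processing notes, without a version. Sequences and their coordinates are from RefSeq on GRCm38.p6, which differs from mm9. Raw UMIs were summed per gated class and library and scaled to CPM with Python 3.11.15, numpy 2.4.6, scipy 1.17.1 and pandas 2.3.3, with 0.5 UMIs added to each sum for log2 ratios. Poisson intervals were used for levels, conditional binomial ones for ratios and Clopper-Pearson ones for shares, all exact and all covering counting error only. The calls were tested on simulated data with counting error only, for cardiomyocyte-like cells against RA. Such data hold no spread between cells or libraries and cannot show how the calls would repeat. Total UMIs per library were 50416748, 38204709 and 19975326 (GFP-positive, GFP-negative and RA). Barcodes left out numbered 46, 240 and 153 for few genes and 11, 4 and 8 for mitochondrial UMIs, in that order. The marker Ahsp was not found. The members, gene lists, gates and comparisons were chosen with earlier results of these data known, so nothing here is an independent test. All 10 members are named. Of the other pathway genes those called in a comparison could be named, those of the largest ratios first, and for each member the 3 genes of highest r were taken. Alternatives are given in the closing section. The splits by Tcf21 and by endothelial subset, the omission of single cells and a minimum of 20 cells were chosen after seeing the data.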

Additional observations from a re-analysis of the deposited data

Results flagged for a closer look

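Between the GFP-positive and RA libraries Smad6 had opposite directions in endothelial subsets, with a log2 ratio of 0.96 (interval 0.42 to 1.62) in endocardial-like and -0.92 (interval -1.52 to -0.33) in capillary-like cells. Against the GFP-negative library Smad6 was called in neither, at 60.8 against 53.6 CPM in endocardial-like and 29.6 against 25.9 CPM in capillary-like cells. The difference between the subsets was not tested, and each side rests on 1 library.

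In 2 libraries the cells left out as mixed carried a member above every gated class of at least 50 cells there. Id4 stood at 34.0 CPM in the mixed cells of the GFP-positive library, against 18.6 CPM in its epicardial-like cells, and 76 of those 202 cells scored highest for epicardial and fibroblast markers. Bmp10 stood at 1.72 CPM in the mixed cells of the GFP-negative library, against 0.221 CPM in its fibroblast-like cells. That value comes from 14 UMIs of which 1 cell gave 64.3%, and without that cell it was 0.615 CPM. The 37 cardiomyocyte-like cells of that library, at 92.0 CPM, were under the size compared.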

How the results depend on the processing

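No paired analysis was possible because each group is 1 library with no replicate number, and no replicate could be left out. Of the counts of members called or led, 69 alternative values lay within 1.5 times the main count and 7 did not. Thinning every cell to 2000 UMIs, which leaves fewer UMIs, gave 4 members called in cardiomyocyte-like cells against RA and 2 in endothelial-like cells against RA, and left 2 members with a leading class in the GFP-positive and 1 in the GFP-negative library. A fold of 2 in place of 1.5 gave 2 endothelial members against the GFP-negative and 3 against the RA library. A stricter gate gave 8 against the GFP-negative library, and the cause was not tested. The share of all genes called or led under these alternatives was not counted. For single genes, 335 alternative ratios kept their call or, where the main ratio had none, stayed inside its interval. Another 30 lost a call, 13 gained one in the same direction and 19 uncalled ones left that interval. No called ratio changed sign. Ratios that fell under 10 UMIs in an alternative are not in these counts. A mean over cells or more added UMIs changed the ratio but not the interval used. Smad7 in endothelium against RA lost its call under 7 alternatives, with log2 ratios from 0.12 to 0.62. The 2 comparisons with the 37 GFP-negative cardiomyocyte-like cells had no main value. The RA cardiomyocyte-like cells fell under 50 in some alternatives, which were then run from 20 cells. A mean over cells in place of summed UMIs shifted the median over all genes by 0.146 in cardiomyocyte-like cells against RA. With 10 UMIs or fewer in both libraries together, Bmp6 and Id4 in muscle gave no call at this depth.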
